A study of Mus musculus with 2 samples.

Results

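The 1000 strongest CTCF peaks of newborn mouse midbrain were described here by the DNA they cover and by where they lie. They were selected on the deposited signal value. The peaks of the optimal list on chromosomes 1 to 19 were ordered by that value, a peak was skipped when its summit lay within 500 bp of a stronger one, and the first 1000 were kept. The optimal list held 68603 peaks, 66972 of them on these chromosomes and 65655 after the spacing step, which leaves 64655 other peaks for comparison. The spacing step removed 1317 peaks, none with a signal as high as that of the weakest member.

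The data come from ChIP-seq, the sequencing of DNA that an antibody to CTCF pulls down with the protein, in midbrain tissue from B6NCrl mice on the day of birth, with no treatment or mutation named in the labels. There was 1 group of 2 replicates, listed under a single tissue sample and donor record with sex not collected, so the spread between the replicates may be technical. With 1 group there is no comparison of conditions, and peaks are not replicates, so no p-value is given. Shares carry 95% Wilson intervals, which cover counting error over peaks only, and differences are described by the number of the 19 autosomes on which they had 1 direction. Read depth is not given in the sources used here, CTCF peaks cannot check the tissue against expression markers, and whole midbrain mixes many cell types.

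CTCF is a protein with a row of zinc fingers that grips a long, directional DNA motif. The ring-shaped cohesin complex extrudes loops of chromatin and is halted by bound CTCF, most effectively when the motifs at both loop ends point toward each other. Methylation of a CpG inside the motif can weaken binding, and rodent short interspersed repeats of the B2 family are known to have carried copies of the motif to many places in the mouse genome.

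Most of the very strongest peaks held not 1 but 2 separate CTCF motifs, usually pointing the same way and lying close together. A motif match here is a 20 bp stretch that scores above 13.38 bits, a per-position p of 1e-05, on a weight matrix learned from peaks ranked 10001 to 20000, so that no member helped to make it. Its most constrained letters were NNNCCANNAGNNGGCNNNNN (matches were sought on both strands). The following sequences show the pairs at the strongest intergenic and intronic members with matches in the same direction, because they carry the main pattern. Each is from GRCm38.p6 (mm10), on the strand of its better match, and capitals mark the 20 bp matches.

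Gm42894, intergenic, chr5:130853522-130853597, minus strand: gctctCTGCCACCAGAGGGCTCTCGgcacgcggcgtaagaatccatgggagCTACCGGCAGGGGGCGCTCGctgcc
Rbm19, intergenic, chr5:120102922-120102997, minus strand: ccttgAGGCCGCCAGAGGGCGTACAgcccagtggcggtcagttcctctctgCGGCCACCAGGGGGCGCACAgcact
Kcnk18, intergenic, chr19:59239624-59239697, plus strand: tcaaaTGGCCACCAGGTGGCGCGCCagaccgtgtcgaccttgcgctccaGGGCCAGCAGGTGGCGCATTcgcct
Pink1, intron, chr4:138319678-138319739, plus strand: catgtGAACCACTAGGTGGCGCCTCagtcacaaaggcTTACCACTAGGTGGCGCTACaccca
Col18a1, intron, chr10:77130727-77130790, plus strand: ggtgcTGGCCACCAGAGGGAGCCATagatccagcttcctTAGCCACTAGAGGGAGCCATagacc
Gm47714, intergenic, chr9:30480624-30480706, plus strand: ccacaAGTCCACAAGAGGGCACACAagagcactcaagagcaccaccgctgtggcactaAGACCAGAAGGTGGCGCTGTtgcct

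In the next 3, the matches lie on opposite strands, so that 1 of each pair reads backwards in the printed letters. At Fam129b and Slc17a9 the motifs face each other, and at Epm2aip1 they point away from each other.

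Fam129b, intron, chr2:32912588-32912652, minus strand: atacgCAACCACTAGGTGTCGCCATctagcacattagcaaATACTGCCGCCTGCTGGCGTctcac
Slc17a9, intergenic, chr2:180745417-180745504, minus strand: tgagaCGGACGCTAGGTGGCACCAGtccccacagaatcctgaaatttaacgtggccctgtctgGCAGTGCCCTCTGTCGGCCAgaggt
Epm2aip1, intergenic, chr9:111290009-111290090, minus strand: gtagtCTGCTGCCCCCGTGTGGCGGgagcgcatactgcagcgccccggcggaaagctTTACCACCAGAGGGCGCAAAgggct

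The 2 strongest members with a single match are shown for contrast, with 10 bp to each side of it.

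Glrx3, intergenic, chr7:137478460-137478499, plus strand: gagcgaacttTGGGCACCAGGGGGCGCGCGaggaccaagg
Stmn1, intergenic, chr4:134478167-134478206, minus strand: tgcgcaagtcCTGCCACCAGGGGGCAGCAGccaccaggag

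Of the 10 strongest members, 8 held 2 matches centred within 100 bp of the summit. The highest signal was at Fam129b, with 353 in replicate 1 and 339 in replicate 2. The peak nearest Gm42894 had 352 and 332, that near Rbm19, whose protein acts in ribosome assembly, had 322 and 347, and that near the potassium channel gene Kcnk18 had 330 and 337. Glrx3, which encodes a glutaredoxin, followed with 317 and 333. The peak in Pink1, whose product is a kinase that marks damaged mitochondria, had 334 and 317. The peak near Slc17a9, a transporter that loads nucleotides into vesicles, had 337 and 311, and that near Stmn1, encoding the microtubule regulator stathmin, had 325 and 316. The last of the 10 were the peak in the collagen gene Col18a1, with 311 and 328, and that near Gm47714, with 312 and 319. The replicates put these 10 peaks in different orders, and their order is a description of the values that chose them.

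Over all members, 143 of 1000 (14.3%, interval 12.3 to 16.6) had at least 2 separate matches, against 1.26% of all 65655 spaced peaks. The share was higher in members than in the other peaks on 19 of 19 autosomes, with a mean of 14.8% and an SD of 4.64 points over autosomes. The pairs were concentrated at the very top. At least 2 matches were found in 15 of the first 20 members, 21 of the following 30 and 27 of the following 50, which makes 63 of the strongest 100 (63.0%, 53.2 to 71.8). Members ranked 101 to 500 had them in 53 of 400 cases (13.2%, 10.3 to 16.9) and members 501 to 1000 in 27 of 500 (5.4%, 3.74 to 7.74). The 1000 peaks just below the members, ranked 1001 to 2000, had 36 (3.6%, 2.61 to 4.94), with an interval that overlaps that of the weaker members. A similar concentration appeared when each replicate ranked its own peaks. Replicate 1's 100 strongest held 55 with at least 2 matches (55%) and replicate 2's held 61 (61%). In the 1000 peaks below each replicate's own 1000 strongest, the counts were 34 (3.4%) and 33 (3.3%). These are largely the same peaks and not a separate observation. Of the strongest 100 members, 84 were among the 100 strongest of replicate 1 and 87 among those of replicate 2. This measure was chosen after the data had been seen.

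**Figure D1:**
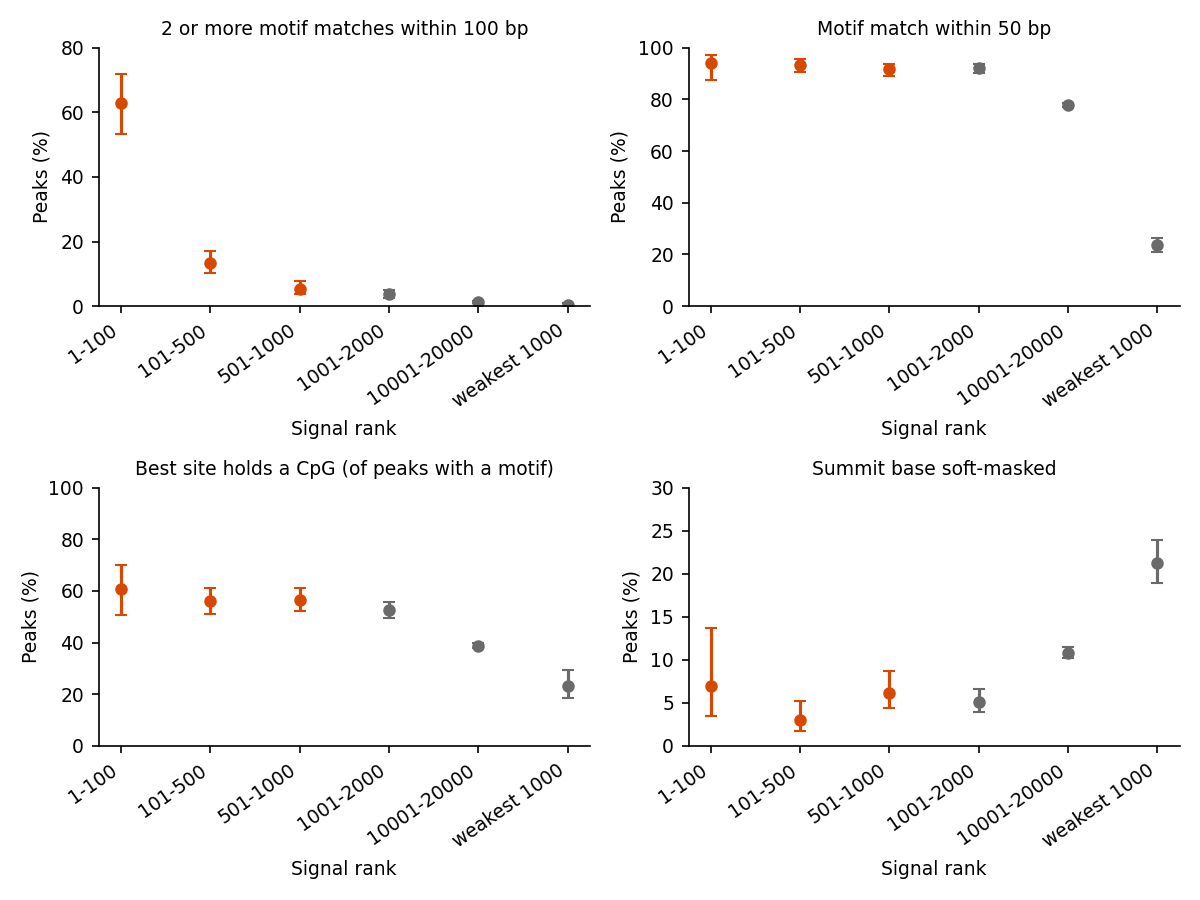
Share of peaks, in percent with 95% Wilson intervals, by signal rank group, for 4 sequence features: at least 2 motif matches, any match, a CpG in the best site (of peaks with a match) and a soft-masked summit. Orange points are members. The share with at least 2 matches falls from 63.0% in the strongest 100 to 5.4% in members 501 to 1000, while the share with any match is at least 91.8% in each group down to rank 2000.

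Among the 139 members with exactly 2 matches, the motifs pointed the same way in 103 (74.1%, 66.2 to 80.7), faced each other in 18 and pointed away from each other in 18. In the 36 pairs of the next 1000 peaks the counts were 18, 9 and 9 (50% in the same direction, 34.5 to 65.5), so the members' interval lies just above that of the next 1000. Repeated copies of a site were not removed, and the tandem repeat near Snhg7os, described below, is among the 103. The pairs at ranks 124, 398 and 716 also had matches of equal score in the same direction. The centres of the members' pairs lay 25 to 127 bp apart, with a median of 56 bp and a middle 50% of 46 to 69.5 bp, and 90 of the 139 lay 30 to 62 bp apart. At Pink1 the centres were 32 bp apart, at Col18a1 34 bp, at Kcnk18 44 bp, at Rbm19 and Gm42894 46 bp and at Gm47714 53 bp. The next 1000 peaks had a median of 60 bp. The better match of a member's pair had a median score of 19.1 bits and the poorer one 16.2 bits.

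**Figure D2:**
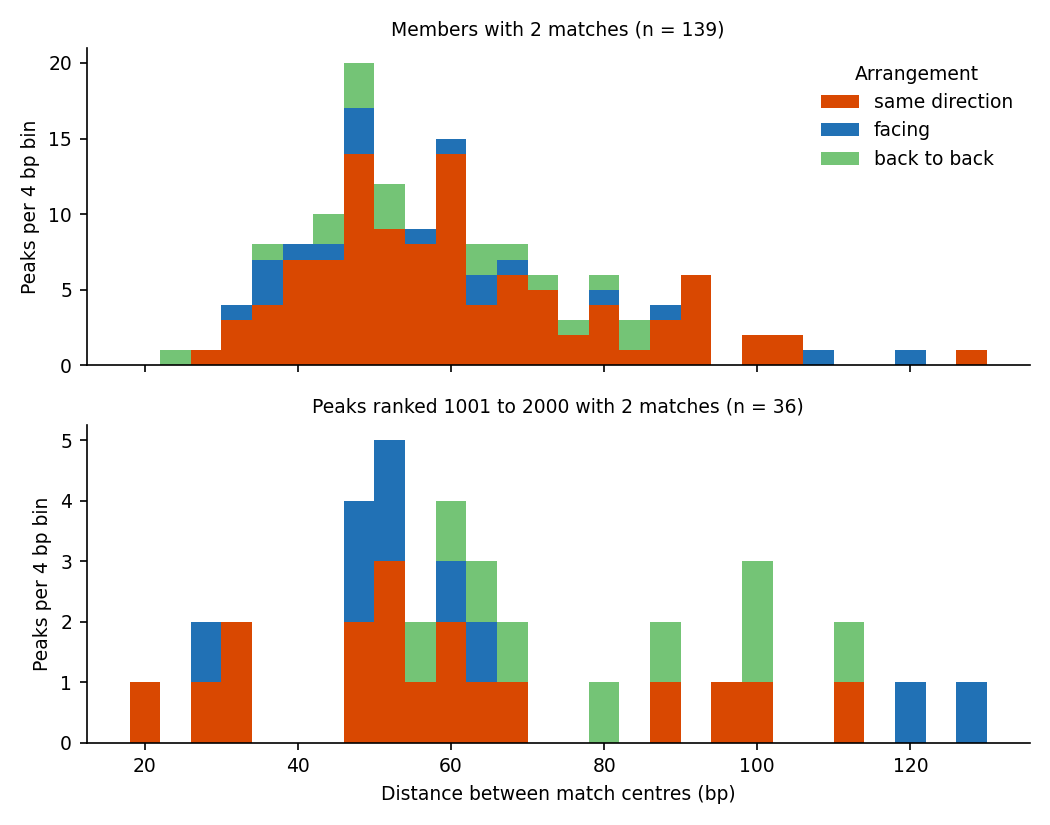
Distance between the centres of the 2 motif matches, in bp, for 139 members and for 36 peaks ranked 1001 to 2000, in 4 bp bins stacked by arrangement. In members most pairs lie 30 to 70 bp apart and point the same way (orange).

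At the very top the summit usually lay near the middle of the pair. In the strongest 100 members the midpoint of the 62 pairs was a median of 3.75 bp from the summit. This median was 8 bp for the 77 pairs of members ranked after the first 100, and 11 bp for the 36 pairs of the next 1000. The centre of the best match was taken over all 94 of the strongest 100 with a match, those with 1 match included. Its median distance from the summit was 22.5 bp, against 4.5 bp in the 459 of members 501 to 1000 with a match. Members with 2 matches were also wider, with a median of 380 bp against 319 bp for those with 1, and their median signal was 545 against 496. Members without a match within 100 bp had a median of 492. Every member passed the same signal cutoff, which keeps such medians close together, so nothing is read from the nearness of 492 to 496. In replicate 1 the medians were 280 with 2 matches, 259 with 1 and 255.9 with none, and in replicate 2 they were 269, 239.4 and 239.999, so both replicates put members with 2 matches highest, while replicate 2 did not separate 1 match from none. Signal and width belong to the measurement that chose the members, and these medians are descriptive.

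**Figure D3:**
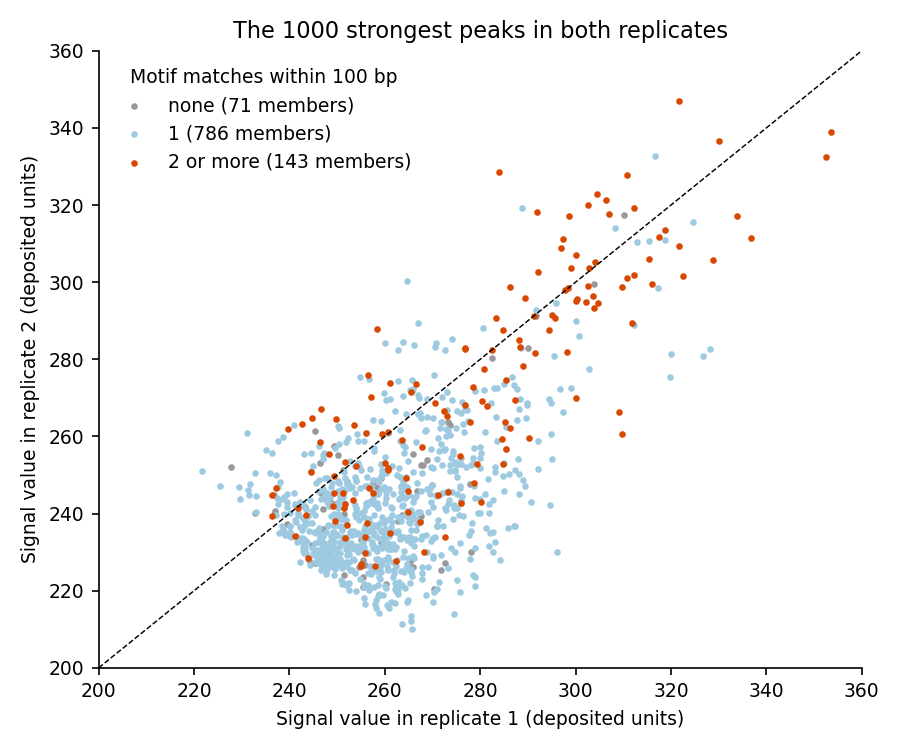
Signal value of each of the 1000 members in replicate 1 (x axis) and replicate 2 (y axis), in deposited units, coloured by the number of motif matches within 100 bp. The dashed line marks equal values. Members with 2 or more matches (orange) fill most of the upper right, and the diagonal lower edge of the cloud is the selection itself.

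In 4 members there were 3 or more matches. The peak near Lsm11, a component of the histone mRNA processing complex, held 3 different ones and had the highest signal of the 4, 569.911. The peaks near Gapt and Gm16230 held short tandem repeats whose every unit carries the same match, and a peak in an intron of Ctif held 5. The strong peak near Snhg7os, rank 28, also lay in a tandem repeat with 2 identical matches and an altered copy between them. It had 284 in replicate 1 and 329 in replicate 2, the lowest ratio of replicate 1 to replicate 2 of any member (log2 -0.21). The Snhg7os and Gapt repeats are shown because the same site recurs within 1 peak.

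Snhg7os, intergenic, chr2:26646976-26647077, plus strand: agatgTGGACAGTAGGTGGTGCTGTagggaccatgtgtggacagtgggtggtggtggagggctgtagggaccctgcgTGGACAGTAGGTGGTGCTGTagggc
Gapt, intergenic, chr13:110368718-110368845, minus strand: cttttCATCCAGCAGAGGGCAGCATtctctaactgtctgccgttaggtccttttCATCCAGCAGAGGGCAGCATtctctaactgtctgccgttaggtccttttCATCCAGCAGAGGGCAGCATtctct

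Nearly every member had at least 1 match. It was centred within 50 bp of the summit in 927 members (92.7%, 90.9 to 94.2), against 62.7% of all spaced peaks. The next 1000 peaks had one in 92.0% (90.2 to 93.5), ranks 10001 to 20000 in 77.8%, though the matrix was learned there, and the weakest 1000 peaks of the list in 23.5% (21.0 to 26.2). Members thus exceeded the other peaks on 19 of 19 autosomes, while their interval overlapped that of the peaks just below them. Windows 1 kb to either side of members held a match in 42 of 2000 cases (2.1%). With a looser per-position p of 1e-04 the members' count was 987. The median score of the members' best match was 19.3 bits, against 19.04 in the next 1000 and 17.8 in all other peaks, where the SD within members was 2.63 bits.

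The 927 best sites were of many kinds, with 921 different 20 bp sequences and 277 different 12 bp cores. A core is the stretch from the first strongly preferred C of the matrix, positions 4 to 15. The most frequent in members was CCACTAGGTGGC, in 48 sites (5.18%, against 1.27% of the other peaks' 40231 sites), followed by CCAGCAGAGGGC in 41 (4.42% against 2.93%), CCACTAGATGGC in 39 (4.21% against 1.14%), CCACCAGAGGGC in 38 (4.10% against 1.22%) and CCACCAGGTGGC in 37 (3.99% against 1.10%). The most frequent core of the other peaks was absent from members. CCAGAAGAGGGC was the core of 7115 of their sites (17.7%) and of 0 of 927 member sites, where a count of 0 allows up to 0.324%. Of those 7115 peaks, 94.5% had a soft-masked summit, a term explained next.

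Members were poor in soft-masked sequence. Soft-masking marks, in lower case, bases of the reference that recur in the genome; which program set it is not given in the sources used here. The summit base was soft-masked in 50 members (5.0%, 3.81 to 6.53), against 21.2% of all spaced peaks, and the share was lower than in the other peaks on 19 of 19 autosomes. It was 5.1% in the next 1000 peaks, 10.8% in ranks 10001 to 20000 and 21.3% in the weakest 1000. The masked runs at members' summits were short, 20 to 41 bp with a median of 23 bp, about the length of a motif. Of the 48 with a match, 34 had most of the matching site in lower case. In the weakest 1000 peaks the runs had a median of 148 bp, and 159 of 213 exceeded 50 bp. Over the 101 bp around the summit, 0 of 1000 members were mostly soft-masked, a count that allows a share of up to 0.3%, against 12 of the next 1000 and 196 of the weakest 1000. How reliably reads map to repeats can differ from unique sequence, and its part in this was not tested.

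The members' sites held CpG more often than those of the list. A CpG lay within the 20 bp of the best match in 527 of 927 sites (56.9%, 53.6 to 60.004), against 37.4% of all sites in the list, and the share was higher in members than in the other peaks on 19 of 19 autosomes (SD 7.60 points). It was 52.6% in the next 1000 peaks (49.4 to 55.8), 38.8% in ranks 10001 to 20000 and 23.4% in the weakest 1000. The CpG sat mostly at matrix positions 15 and 16, where 42.6% of member sites had one against 29.0% of sites in ranks 10001 to 20000. At position 16 itself, members had G in 52.9% and A in 45.7% of sites, while ranks 10001 to 20000 had 44.3% and 50.9%. The 201 bp around the members' summits had a median GC content of 53.2% against 48.8% in the other peaks, and a median of 4 CpG against 2, so the surroundings differed in the same direction. The next 1000 peaks had a median GC content of 51.2% and likewise a median of 4 CpG. The part of this base composition in the CpG of the sites was not tested. No methylation was measured.

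Outside the 20 bp matrix, preferences on both sides were stronger in members than in middle ranks. Upstream, C stood at position -7 in 57.1% of member sites against 43.4% in ranks 10001 to 20000. Downstream, G stood at position 22 in 49.7% against 37.2%, and C at position 25 in 56.3% against 44.6%. The next 1000 peaks were close to the members at all 3 positions, with 55.1%, 51.2% and 54.9%. An upstream module, a short stretch 3 to 17 bp before the matrix that is read by further zinc fingers of CTCF, was learned from the same middle ranks as NNNNNNNNTNCNNNN. A score exceeded by 1% of flank windows was reached in 228 of 927 members (24.6%, 21.9 to 27.5), against 19.1% of all sites in the list, higher than in the other peaks on 17 of 19 autosomes. The share was 12.8% (7.46 to 21.0) in the strongest 100 and 25.9% (23.1 to 29.0) in the members after them, and the next 1000 peaks had 23.4%. The strongest 100 thus had the module less often than the remaining members, with intervals that do not overlap. Ranks 30001 to 40000 also reached 25.9%, so the share did not follow signal through the list. With motif matches at a stricter per-position p of 1e-06, the share was 22.0% in members and 21.2% in the other peaks, nearly the same.

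**Figure D4:**
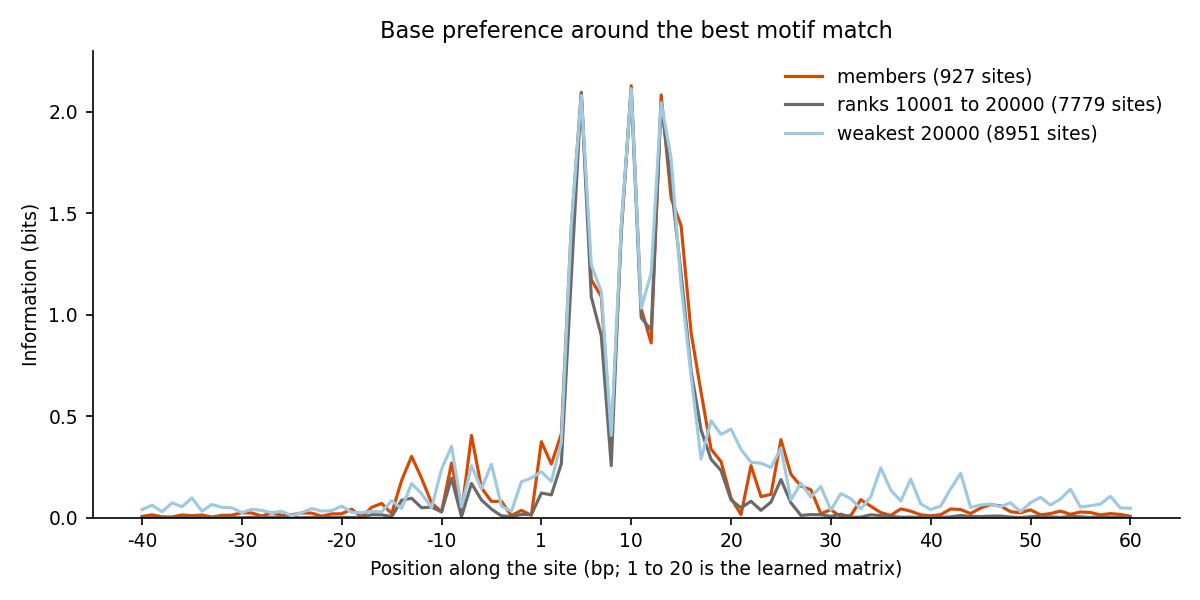
Information content in bits, relative to flank base composition, at each position around the best match, aligned on the 20 bp matrix (positions 1 to 20; negative positions are upstream). Members (orange) exceed ranks 10001 to 20000 (grey) at positions -14 to -12, -7, 1 to 4 and 25 to 28, among others; the weakest 20000 peaks (blue) carry extra information up to position 60, where members are near 0.

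Within 50 bp of the summit, no match at either p was found in 13 members, and 73 had none at 1e-05. Within 100 bp, 71 members had none at 1e-05. The strongest of the 73 was rank 17, 61 bp from a start of Rrp1, a ribosomal RNA processing gene, with 310 in replicate 1 and 317 in replicate 2 and a best score of 9.18 bits. Next were a peak near Hif1an, encoding an oxygen-sensing hydroxylase, with 304 and 299.6 and a score of 13.36 bits that lay just under the threshold, and one 44 bp from a start of the cold receptor gene Trpm8, with 292 and 291 and 11.8 bits. Promoters, within 1 kb of a start, held 20 of the 73 (27.4%) and 6 of the 13 (46.2%), against 19.1% of members with a match and 20.6% of all spaced peaks. Both counts are small and are given without an interval, so no excess is read from them. Summit regions of intergenic members with no match at either p are shown, from 30 bp before to 30 bp after the summit, on the plus strand and with no capitals. Their best scores were 8.33 bits (Rapgef1), 4.67 bits (Chmp6) and 8.20 bits (Gm21362). The threshold at 1e-04 was 9.01 bits, so Rapgef1 and Gm21362 fell just under it.

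Rapgef1, rank 447, chr2:29582545-29582605: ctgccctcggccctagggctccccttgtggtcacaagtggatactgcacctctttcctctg
Chmp6, rank 625, chr11:119905108-119905168: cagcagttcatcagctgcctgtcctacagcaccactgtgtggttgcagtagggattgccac
Gm21362, rank 915, chr1:193699049-193699109: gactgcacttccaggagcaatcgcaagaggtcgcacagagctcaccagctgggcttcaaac

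Every member had a peak within 100 bp in the list of each replicate. Replicate 1 signal ran from 221.755 to 353.448 with a median of 260.242, and replicate 2 signal from 209.964 to 346.854 with a median of 241.81. The log2 ratio of replicate 1 to replicate 2 was 0.10 at the median, with an SD of 0.10 over members, against a median of 0.31 and an SD of 0.46 in the other peaks. Just below the set, in the next 1000 peaks, it was 0.13 at the median (SD 0.10), so a spread this narrow was not particular to members. The ranking used both replicates, and their closeness in members is descriptive. Among the 1000 strongest of replicate 1's own list were 840 members, and among those of replicate 2 were 859, while the replicates' own lists of 1000 shared 707. Replicate 1's 2000 strongest held 991 members and replicate 2's held 999. The members most in excess in replicate 1 were near the helicase gene Dhx35, with 296 and 230, near Fgd2, with 274 and 214, and at a start of Fbxo7, with 266 and 210.

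The boundary of the set was not a gap. The last members had signals of 472.09 (in an intron of Ralgps1), 472.081 (near Gkn3) and 471.951, and the first peaks outside had 471.943, 471.909 and 471.906. The members' median was 498.569, that of the next 1000 peaks 454.954 and that of all other peaks 75.8. All 1000 members were in the conservative list, where they were again the 1000 strongest. Chromosome X, which the rule leaves out, had 1618 optimal peaks, of which the strongest reached 440.072, below every member.

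Members lay between genes more often than other peaks. Intergenic sequence held 424 (42.4%, 39.4 to 45.5) against 33.6% of the other peaks, higher on 18 of 19 autosomes, and introns held 331 (33.1%, 30.3 to 36.1) against 40.8%, lower on 16 of 19. The next 1000 peaks had 42.0% and 36.4%. Promoters held 197 members (19.7%, 17.4 to 22.3), against 20.6% of all spaced peaks, and exons 48 (4.8%) against 5.03% of the others, and both intervals held the share of the other peaks. Of the strongest 100, 52 were intergenic, 25 at promoters, 18 in introns and 5 in exons. Another peak of any strength lay within 10 kb of 73.8% of members and of 63.8% of other peaks, higher on 16 of 19 autosomes, and the next 1000 had 73.7%.

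**Figure D5:**
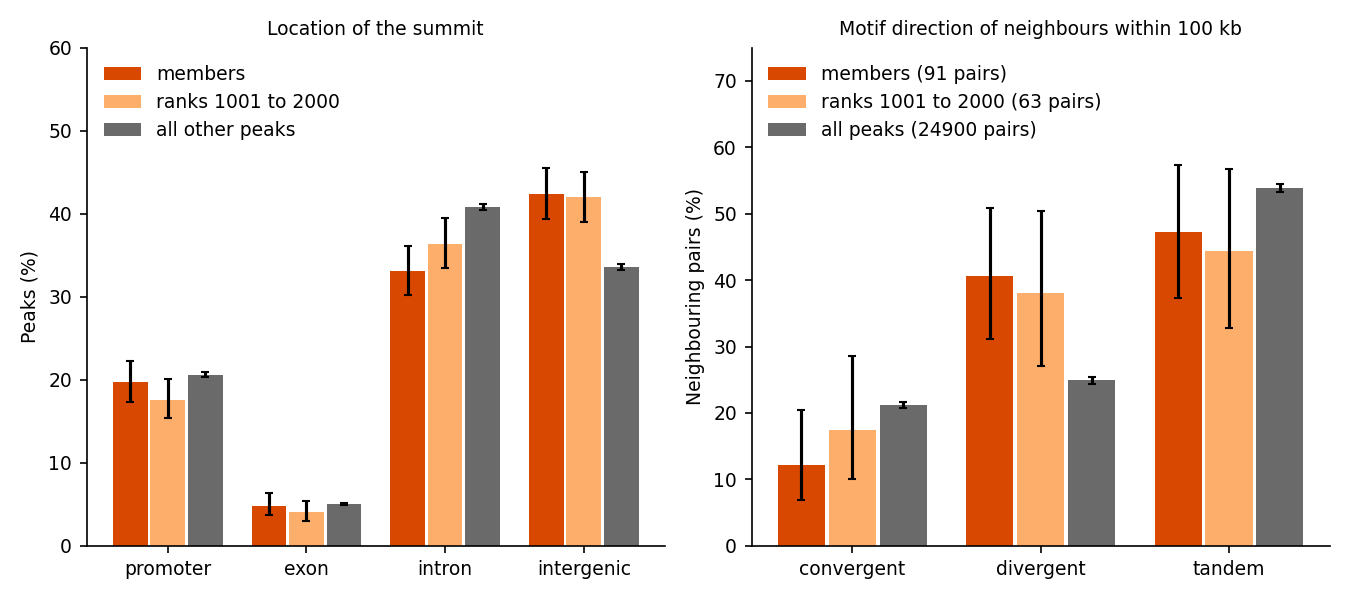
Left, share of peaks by location of the summit, in percent with 95% Wilson intervals, for members, ranks 1001 to 2000 and all other peaks. Right, motif direction of neighbouring peaks at most 100 kb apart; among members 40.7% of 91 pairs pointed away from each other and 12.1% toward each other.

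The 197 promoter members were a median of 145 bp from the nearest annotated start, 146 of them at starts of protein-coding genes, and 143 lay upstream of the start. The strongest were at Iqsec1, an exchange factor for Arf proteins (329 in replicate 1 and 306 in replicate 2), at the noncoding Gm43246 within 2900026A02Rik (319 and 313), at Rrp1, at Rab2b, a small GTPase gene (313 and 310), and at Polr3gl, which encodes a subunit of RNA polymerase III (315 and 306). Those at Iqsec1, Gm43246 and Polr3gl held 2 matches each. Promoter members had a match in 89.8% of cases and the remaining members in 93.4%, and their median signals were 497.976 and 498.753. The strongest exonic members were in Ptges2, a prostaglandin synthase gene (305 and 323), Armc9 (297 and 309), the growth factor gene Gdf15 (305 and 294), Rdh13 (303 and 278) and the phosphatase gene Ptpn7 (296 and 281). Those in Ptges2, Armc9 and Gdf15 held 2 matches.

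Members were spread over all 19 autosomes at a mean of 0.416 per Mb (SD 0.130), from 0.231 on chromosome 3 to 0.786 on chromosome 11. As a share of each chromosome's spaced peaks they made up 1.53% on average (SD 0.278). The nearest other member was a median of 404 kb away, against 485 kb between peaks of the next 1000, and 122 members had another within 50 kb, against 75 of the next 1000. The closest pair lay 2487 bp apart on chromosome 7 near 6720469O03Rik, with both motifs in the same direction. Other close pairs were 2918 bp apart near Gm25888, 3325 bp apart near A930015D03Rik and 3420 bp apart at Eya2. The pair near Gm25888 faced each other, the pair near A930015D03Rik pointed apart, and the pair at Eya2 pointed the same way.

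Motif direction between neighbouring members differed between gaps of up to 1 Mb and gaps of up to 100 kb. The direction was taken from the best match, and was plus for 473 of 927 members (51.0%). Of 446 pairs of consecutive members at most 1 Mb apart, 118 faced each other (26.5%, 22.6 to 30.7), against 21.8% of 26621 pairs among all spaced peaks, members included. Those pairs were closer together, with a median gap of 13253 bp against 314750 bp. In the next 1000 peaks 94 of 397 pairs at most 1 Mb apart faced each other (23.7%, 19.8 to 28.1). That interval overlaps the one of the members. At gaps of at most 100 kb only 11 of 91 member pairs faced each other (12.1%, 6.89 to 20.4), against 21.2% of 24900 pairs among all peaks, and 37 pointed away from each other (40.7%, 31.1 to 50.9), against 24.9%. The next 1000 peaks had 11 facing and 24 diverging among 63 such pairs (17.5% and 38.1%), and their intervals overlapped those of the members.

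The members were also set against lists of genes. Within 10 kb of a start, 564 of 20807 autosomal protein-coding genes (2.71%) had one, and 529 had a peak of the next 1000. The gene lists were small, so counts of 0 to 2 are given as they stand, with nothing read from a share above or below 2.71%. Pink1 and Fbxo7, which encodes a ubiquitin ligase component, had a member. Of 20 dopamine neuron genes 1 had one (5%), Pitx3, a homeobox regulator of these neurons, whose exonic peak had 286 and 236. Of 25 midbrain patterning genes 1 had one (4%), the homeobox gene Barhl1 (242 and 234). Among 18 pan-neuronal genes there were 2 (11.1%), Stmn1 and Rbfox3, the gene of the neuronal splicing factor NeuN (236 and 255.7). Among 19 glial genes there were 2 (10.5%), Gfap, the astrocyte filament gene (264 and 211), and Mbp, the myelin protein gene (243 and 230). Among 31 axon guidance genes there were 2 (6.45%), the receptor gene Ephb1 (271 and 256.3) and Sema6a (270 and 247), the latter without a match. Among 16 genes of CTCF and cohesin function there were 2 (12.5%), Adnp (259 and 249) and Esco1, whose enzyme acetylates cohesin (251 and 251), the latter again without a match. The counts were 0 of 30 imprinted genes, 0 of 20 liver genes and 0 of 18 muscle genes.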

How the data were processed

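CTCF ChIP-seq peak lists of 2 replicates of 1 group were used as deposited. The authors' lists give, per peak, a signal value whose scale is not stated, a -log10 q value capped in the optimal list at 5.18 (all 1000 members carry the cap, so it ranked nothing) and a summit offset, on mm10 per the labels. For the aligner, peak caller, IDR (irreproducible discovery rate) threshold and depth, nothing is given in the sources used here. From these the members were chosen, and scanned with a weight matrix learned from peaks ranked 10001 to 20000 against windows 1 kb to either side. Sequence came from GRCm38.p6 and gene starts from GENCODE vM21. Separate matches do not overlap. Each member was paired with a replicate peak whose summit lay within 100 bp. Calculations used Python 3.11.15, numpy 2.4.6 and scipy 1.17.1, and motif scanning was tested on simulated data.

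The members and gene lists were chosen with earlier results of these data known. Named members followed a rule: the 10 strongest, the 5 strongest per location class, the 3 strongest without a match, the 3 highest and 3 lowest replicate ratios, the 5 closest pairs and members within 10 kb of listed genes. Not all of these are printed, and some are not reported here. Members with 3 or more matches, the members at the boundary, and the sequence examples near Epm2aip1, Gapt, Rapgef1, Chmp6 and Gm21362 were chosen after their values were seen. No sequence of chromosome 18 is shown. Alternatives changed the list, the number kept, the spacing, the replicate behind the ranking, the motif threshold, reach and matrix, the promoter width, the neighbour distance and the masking rule.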

Additional observations from a re-analysis of the deposited data

How the results depend on the processing

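Of 77 alternative values of 8 results, 63 moved by less than the spread used as the yardstick (the 95% interval of a share or 1 SD of a score), 11 moved further and 3 changed direction against the other peaks. With the conservative list and with summits 1 kb apart, all member values were identical to the main ones. Those alternatives could change only the comparison with the other peaks, so their part of the 63 says nothing about stability. The share of members with at least 2 matches, whose alternatives were all chosen after seeing the data, was 23.2% in the first 500 and 8.95% in the first 2000 peaks, and 27.8% and 5.3% at per-position p of 1e-04 and 1e-06, where the other peaks had 8.55% and 0.176% (1.06% at 1e-05), so the ratio to the other peaks was smaller at 1e-04. The share with any match was 98.7% and 71.8% at these p, and the median score 20.2 bits at 1e-06. The upstream module share was 25.6% against 17.1% in the other peaks at 1e-04, and 22.0% against 21.2% at 1e-06. The soft-masked share was 3.8% in the first 500 and 0% when most of the 101 bp had to be masked. The promoter share was 42.4% within 5 kb of a start and 15.5% with protein-coding starts. It turned from below to above the other peaks with summits 1 kb apart (19.7% against 19.6%) and within 500 bp of a start (14.8% against 14.7%), so it had no stable direction. The convergent share fell from above to below the list with neighbours within 100 kb (12.1% against 21.2%). The cause of these changes was not tested. Leaving out a replicate, by ranking the other's own list, gave 92.5 to 93.3% for the motif, 19.2 to 19.4 bits for the score, 56.2 to 57.5% for CpG, 24.1 to 24.6% for the upstream module, 19.6 to 20% for promoters, 26.2% in both cases for convergent pairs, 13.5 to 14.7% for at least 2 matches and 4.6 to 4.7% for masked summits. No paired analysis was possible because there is 1 group. Read depth is unknown, so what it limits cannot be given, and both replicates entered the values that ranked the peaks.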
